A study of Mus musculus with 22 samples.

Results

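8 genes whose mRNA differed by a modest factor between the thymi of Tol mice and of wild-type (WT) littermates were followed through thymus, cerebrum and cerebellum: Fbxl4, Mtfr1l, Ctso, Capn3, Slc14a1, Olfr1033, B230118H07Rik and Gm42715. They were chosen from the thymus comparison itself, for a modest difference with no overlap between the groups, and no limit of size was set. All 8 also lay under an adjusted p of 0.05 there in edgeR's quasi-likelihood test. They are 8 of the 34584 genes listed in the count tables, and 8 of the 16 thymus genes under that threshold. The threshold falls between close neighbours: Mtfr1l lay inside it (adjusted p 0.0389 in edgeR, log2 fold change 0.40), as did Olfr1033 at the same adjusted p, and Nt5dc1 was the nearest gene outside (0.0524, log2 fold change 0.41). The other 8 thymus genes under it had absolute log2 fold changes from 0.47 to 1.80. Because of this choice, the thymus differences of the members are given as a description. Their adjusted p values there only place them against the threshold and are not read as a test of the members. The brain libraries and the comparisons between organs of WT mice took no part in the choice.

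The study made a mouse strain that expresses pieces of common reporter and modifier proteins so as to tolerate them, and RNA sequencing asked how far the transgene alters expression in its tissues. Each organ was sampled from 4 WT mice, and from 4 Tol mice for thymus and cerebrum but 2 for cerebellum, all on the C57BL/6 strain. Tol mice are heterozygous for the transgene, a scrambled open reading frame of these proteins under the ubiquitous CAG promoter, at a site 3′ of Col1a1. It was placed there by cassette exchange in a C57BL/6J embryonic stem cell line, and chimeras were crossed with C57BL/6JRj mice, so that all Tol mice share this insertion. WT littermates lack it. The methods give 7 to 14 weeks as the age at which animals were used, and the labels give no age for single mice. Libraries were stranded, single-end and made from the poly(A) RNA of frozen tissue, with total counts from 14543698 (cerebrum Tol 4) to 34776973 (thymus Tol 1).

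The products of the members have varied roles. FBXL4 is a receptor subunit of an SCF ubiquitin ligase at the mitochondrial outer membrane that holds back mitophagy by removing the mitophagy receptors BNIP3 and NIX, and MTFR1L is an outer membrane protein that acts on the balance of mitochondrial fission and fusion. Cathepsin O, encoded by Ctso, is a cysteine protease of the lysosome, while calpain 3, encoded by Capn3, is a calcium-dependent cysteine protease best known from skeletal muscle, where its loss causes a muscular dystrophy. Slc14a1 encodes urea transporter B, found in red blood cells, kidney vessels and astrocytes, and Olfr1033 belongs to the olfactory receptors, a very large family of G protein-coupled receptors that sense odours in the nose. B230118H07Rik, listed as Iftap in RefSeq, encodes a protein associated with intraflagellar transport, the traffic along cilia, and its locus runs through those of Rag1 and Rag2, the recombinase that cuts antigen receptor genes in developing lymphocytes. Gm42715 is a gene model that joins most exons of Srcap, the ATPase of a chromatin remodelling complex, to those of Tmem265.

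The tissues carried their markers. Summed over 8 thymocyte markers, the level was 7241 to 9091 CPM (counts scaled to a common library size by TMM factors) in the Tol thymi and 8712 to 10116 CPM in the WT thymi, with Rag1 as the most abundant, against 5.02 to 45.6 CPM in the cerebra and 5.56 to 7.58 CPM in the cerebella. 6 neuron markers summed to 5515 to 8792 CPM in the cerebra and 4620 to 5485 CPM in the cerebella, against 29.9 to 41.5 CPM in the thymi. The Tol transcript stood at 448 to 1023 counts in the Tol thymi, 2240 to 3520 in the Tol cerebra and 3479 and 4628 in the Tol cerebella, and at 0 to 2 counts in WT libraries. One library went against its tissue label in part: in cerebellum Tol 2, 6 cerebellar granule cell markers summed to 151 CPM, compared with 1848 to 4425 CPM in the other 5 cerebella, and the Purkinje cell markers summed to 1354 CPM, the lowest of the 6. Its rank correlation with the other cerebella across genes was 0.947 to 0.974. The cerebellum log2 fold change of each member is therefore given with and without this library, while values of gene lists and of added counts include it. Cerebellum WT 2 had the highest oligodendrocyte marker sum, 17279 CPM against 4698 to 9438 CPM in the other 5 cerebella, and the lowest Purkinje cell sum of the WT cerebella, 3974 CPM against 8673 to 9779 CPM. Choroid plexus markers also varied among the cerebella, with sums of 1323 CPM in WT 2 and 4745 CPM in WT 4 and of 20.3 to 38.7 CPM in the rest.

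Within the thymus, 7 members were higher in all 4 Tol mice than in any WT mouse and 1, Olfr1033, was lower in all of them, which the choice of members fixed. Over all 16248 genes tested there, 0.0985% passed the adjusted threshold (0.0554% higher and 0.0431% lower in Tol), 11.6% had groups without overlap (6.11% with Tol higher and 5.5% with Tol lower), and 24.4% lay under an unadjusted p of 0.05. The thymus call count depends on tool and library: edgeR called 16 genes and DESeq2 1296, and edgeR called 0 without any 1 of Tol 2, Tol 4, WT 1, WT 2 or WT 3, 7 without WT 4, 97 without Tol 3 and 2978 without Tol 1. Thymocyte markers summed to 8610, 7766, 9091 and 7241 CPM in the Tol thymi and 9273, 9076, 8712 and 10116 CPM in the WT thymi, and 4 lymphocyte markers, most abundant Ptprc, to 2821, 2654, 2961 and 2643 CPM and 2928, 2936, 3002 and 3134 CPM. The groups overlap in both, with Tol 2 and Tol 4 lowest. In these 2 thymi 5 of the 7 higher members (Fbxl4, Ctso, B230118H07Rik, Mtfr1l and Capn3) were highest. The thymocyte sum leans on Rag1 (mean 3897 CPM over the thymi), itself lowest in Tol 2 and Tol 4 (2847 and 2641 CPM). Of the thymocyte markers, 4 of 8 had a positive log2 fold change (median 0.02), and of the lymphocyte markers 1 of 4 (median -0.13). In edgeR 0 of these 8 and 4 markers passed an adjusted p of 0.05. None was at 0, and their part in the members' levels was not tested.

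In the cerebrum, 0 of the 8 members passed an adjusted p of 0.05 in edgeR, the same share as all 15596 genes tested, 0%. There 1 member had an unadjusted p under 0.05 against 9.66% of all genes, and DESeq2 called 187 genes but 0 members. All 8 members had overlapping groups in the cerebrum, where 6.46% of all genes had groups without overlap (3.29% with Tol higher and 3.17% with Tol lower). For Fbxl4, Ctso and Slc14a1 the overlap came from WT 3 alone. This library had the highest thymocyte (45.6 CPM) and forebrain neuron (699 CPM) marker sums of the cerebra. In the cerebellum, edgeR called 0 of the 8 members and 0% of 16662 genes. There 1 member had an unadjusted p under 0.05 against 3.16% of all genes, and DESeq2 called 9 genes but 0 members. 1 member was higher in both Tol cerebella than in all WT cerebella (5.21% of all genes), 1 was lower in both (5.26%) and 6 overlapped. The median log2 fold change of the members was -0.08 in the cerebrum and 0.01 in the cerebellum, against -0.00 and 0.01 over all genes tested. Whether a member differs more in thymus than in the brain was not tested, since the thymus contrast chose the members. The biological coefficient of variation was 33.2% in the cerebellum fit, which has 2 Tol libraries, against 16.6% in cerebrum and 11.2% in thymus.

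**Figure D1:**
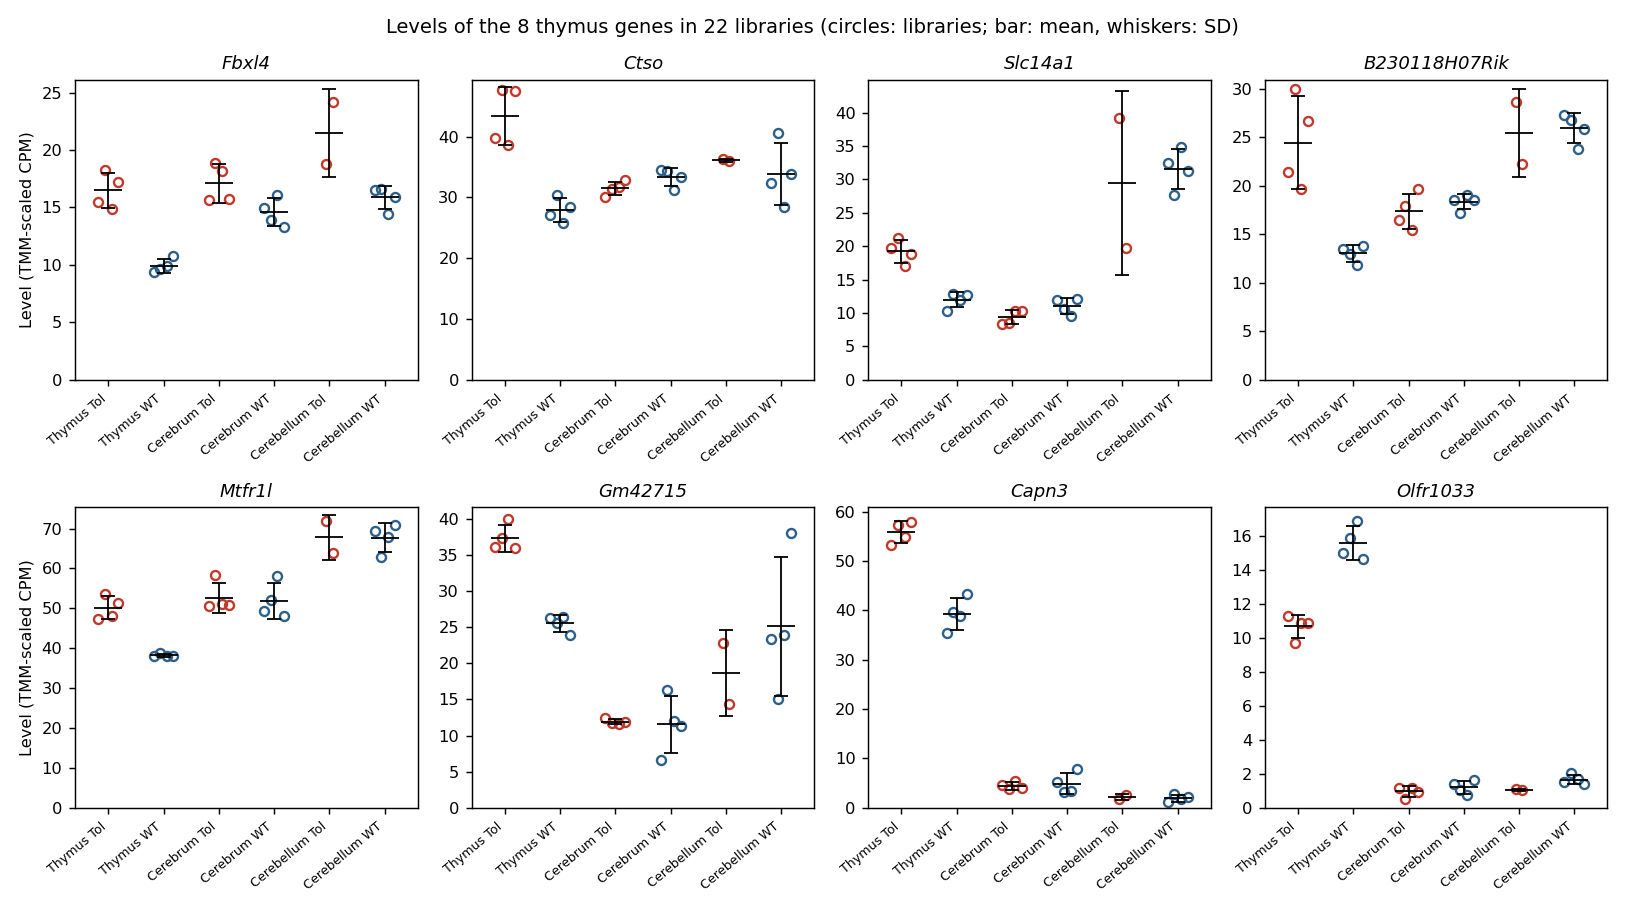
Level of each of the 8 genes (vertical axis, CPM scaled by TMM factors, from 0) in the 22 libraries, grouped by organ and genotype; circles are libraries, horizontal bars the group mean and whiskers 1 SD (n = 4, but n = 2 for Tol cerebellum). The Tol and WT thymi do not overlap in any panel, the rule by which the genes were chosen, while the cerebra overlap in every panel.

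Fbxl4 (ENSMUSG00000040410, chr4:22357543-22434091, plus strand, GRCm38) was at 15.5, 18.3, 14.9 and 17.2 CPM in the Tol thymi and at 9.35, 9.68, 9.93 and 10.8 CPM in the WT thymi. The lowest Tol mouse was above the highest WT mouse, and Tol 2 and Tol 4 were the highest of all, with a log2 fold change of 0.73 (standard error 0.09). In bulk tissue, fewer or more cells of a type cannot be told apart from less or more RNA per cell. In the cerebra Fbxl4 stood at 15.6, 18.9, 18.2 and 15.7 CPM in Tol mice and at 14.96, 13.95, 16.1 and 13.3 CPM in WT mice. WT 3 was above Tol 1 and Tol 4, so the groups overlapped, and the log2 fold change was 0.23 (95% interval 0.02 to 0.44, unadjusted p = 0.0328 and adjusted p = 0.456 by edgeR over all genes). In the cerebella the levels were 18.8 and 24.2 CPM in Tol mice and 16.5, 16.6, 14.4 and 15.9 CPM in WT mice. Both Tol cerebella were above every WT cerebellum, the higher being the library that stands apart, and the log2 fold change was 0.46 (95% interval 0.10 to 0.83, unadjusted p = 0.0203 and adjusted p = 0.957 by edgeR). Without Tol 2 the log2 fold change was 0.24 (adjusted p = 0.979 by edgeR), with the remaining Tol sample assumed to vary like the WT mice. Fbxl4 was the member with the lowest unadjusted p in either brain region, and in neither did it pass the adjustment.

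Mtfr1l (ENSMUSG00000046671, chr4:134525550-134535387, minus strand) showed the smallest thymus difference of the 8. Its levels were 47.4, 53.7, 48.1 and 51.4 CPM in the Tol thymi and 38.0, 38.8, 37.9 and 38.1 CPM in the WT thymi, a log2 fold change of 0.40 (standard error 0.06). The WT thymi lay within 1 CPM of each other, and the Tol thymi were all higher and more spread. In the cerebra it was at 50.5, 58.2, 51.0 and 50.8 CPM in Tol mice and 49.2, 52.0, 58.2 and 48.1 CPM in WT mice. 1 mouse of each genotype, Tol 2 and WT 3, stood above the rest, the others lay between 48.1 and 52.0 CPM, and the log2 fold change was 0.02 (95% interval -0.15 to 0.20, adjusted p = 0.949 by edgeR). In the cerebella the levels were 71.8 and 63.8 CPM in Tol mice and 69.4, 62.7, 67.9 and 70.9 CPM in WT mice. The groups overlapped there too (log2 fold change 0.03, 95% interval -0.20 to 0.26, adjusted p = 0.977 by edgeR). Without Tol 2 the value was 0.08 (adjusted p = 0.979 by edgeR).

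Other genes of these mitochondrial pathways did not pass the test in any comparison of Tol with WT. Of 19 genes of mitophagy and the SCF ligase, all tested, 0 passed an adjusted p of 0.05 in edgeR in each organ, with 6 under an unadjusted p of 0.05 in thymus and 0 in cerebrum and cerebellum (24.4%, 9.66% and 3.16% of all genes). Their median log2 fold changes were 0.05, -0.02 and 0.04 in thymus, cerebrum and cerebellum, against 0.01, -0.00 and 0.01 over all genes. Rbx1, the ring subunit of the SCF ligase, had the lowest p of the list in thymus, with a log2 fold change of 0.34 (standard error 0.10), and in cerebrum, with -0.11 (standard error 0.05, adjusted p = 0.539 by edgeR). In cerebellum it was Tmem11, a mitochondrial membrane protein (0.19, standard error 0.11, adjusted p = 0.957 by edgeR). Of 16 genes of fission and fusion, 15 were tested and 0 passed in each organ, with 4, 0 and 1 under an unadjusted p of 0.05 in thymus, cerebrum and cerebellum (24.4%, 9.66% and 3.16% of all genes) and medians of -0.02, -0.00 and -0.04. Miga1, which promotes fusion, stood at a log2 fold change of 0.35 (standard error 0.07) in thymus. The fission adaptor Fis1 was at -0.14 in cerebrum (adjusted p = 0.601 by edgeR) and the fusion GTPase Mfn1 at -0.24 in cerebellum (adjusted p = 0.957 by edgeR).

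Ctso (ENSMUSG00000028015, chr3:81932601-81956725, plus strand) was at 39.8, 47.6, 38.7 and 47.5 CPM in the Tol thymi and at 27.2, 30.4, 25.7 and 28.3 CPM in the WT thymi. Tol 2 and Tol 4 were again the highest, all 4 Tol mice were above the WT mice, and the log2 fold change was 0.64 (standard error 0.09). In the cerebra the order of the means was the other way, with 30.1, 31.3, 31.7 and 32.8 CPM in Tol mice and 34.5, 34.3, 31.2 and 33.4 CPM in WT mice. WT 3 lay among the Tol mice and the other WT mice above them. The log2 fold change of -0.08 (95% interval -0.23 to 0.07, adjusted p = 0.738 by edgeR) did not pass the adjusted test. In the cerebella, 36.3 and 36.0 CPM in Tol mice lay among 32.4, 40.6, 28.5 and 33.8 CPM in WT mice (log2 fold change 0.12, 95% interval -0.25 to 0.49, adjusted p = 0.958 by edgeR). Without Tol 2 the value was 0.10 (adjusted p = 0.979 by edgeR).

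Capn3 (ENSMUSG00000079110, chr2:120456019-120504913, plus strand) was at 53.4, 57.4, 54.9 and 58.0 CPM in the Tol thymi and at 35.5, 39.7, 38.8 and 43.3 CPM in the WT thymi, a log2 fold change of 0.51 (standard error 0.07). The 4 Tol mice lay close together above the WT mice. In the brain the gene had fewer reads, with 49 to 130 counts per library in the cerebra and 25 to 65 in the cerebella. Cerebrum levels were 4.66, 3.69, 5.43 and 3.97 CPM in Tol and 5.10, 3.15, 3.30 and 7.79 CPM in WT mice, and cerebellum levels were 1.73 and 2.62 CPM in Tol and 1.05, 2.75, 1.81 and 2.05 CPM in WT mice. Groups overlapped in both regions, with log2 fold changes of -0.12 (95% interval -0.77 to 0.53, adjusted p = 0.931 by edgeR) and 0.21 (95% interval -0.82 to 1.25, adjusted p = 0.958 by edgeR; -0.14 without Tol 2, adjusted p = 0.986). Both intervals are wide, and differences of Capn3 inside them cannot be told apart from no difference in these mice.

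7.68% of the exon bases of Capn3 are shared with Ganc, an alpha-glucosidase gene that precedes it on the same strand, and reads there can be given to either gene. For Ganc alone the thymus log2 fold change was 0.19 (standard error 0.07). With the counts of both genes added, an alternative chosen after seeing the data, the thymus log2 fold change was 0.37 (standard error 0.05), the Tol thymi spanning 90.3 to 96.5 CPM and the WT thymi 71.0 to 76.7 CPM, again without overlap. The direction turned in both brain regions, to 0.07 in cerebrum (adjusted p = 0.837 by edgeR) and -0.09 in cerebellum (adjusted p = 0.958 by edgeR). There the sums describe mostly Ganc, since Capn3 took 20.7% to 42.3% of the summed counts in the cerebra and 6.05% to 14.3% in the cerebella. Because calpain 3 is abundant in muscle, 8 skeletal muscle markers were read beside it: their sum was 20.7, 21.2, 20.5 and 23.1 CPM in the Tol thymi and 16.1, 16.7, 19.2 and 18.5 CPM in the WT thymi. The sum was thus higher in the Tol thymi without overlap, as were 6.11% of all genes tested. Of the 4 markers tested, 3 had a positive log2 fold change (median 0.10) and 0 passed an adjusted p of 0.05 in edgeR. Mylpf (mean 15.9 CPM over the 8 thymi) made up most of the sum, so that it describes mainly this gene. No marker was at 0 in all thymi, and the part of the markers in the Capn3 level was not tested.

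Among other cysteine proteases, 0 of 14 cathepsin and cystatin genes tested passed an adjusted p of 0.05 in edgeR in thymus (3 under an unadjusted p of 0.05), 0 of 12 in cerebrum (1) and 0 of 14 in cerebellum (1). Of all genes, 24.4%, 9.66% and 3.16% had such an unadjusted p in thymus, cerebrum and cerebellum, which holds for the calpains too. The medians of this list were 0.09, -0.03 and 0.11. Cst6, an inhibitor of cathepsins, was at 0.54 (standard error 0.13) in thymus. Cst3, the main cystatin of brain fluid, was at -0.30 in cerebrum (adjusted p = 0.224 by edgeR) and Ctsw, a cathepsin of killer lymphocytes, at -1.39 in cerebellum (adjusted p = 0.957 by edgeR). Of the calpains and calpastatin, 0 of 10 tested passed in thymus (2 under an unadjusted p of 0.05), 0 of 11 in cerebrum (2) and 0 of 11 in cerebellum (0), with medians of -0.08, -0.06 and -0.07. Capn15 was at -0.25 (standard error 0.08) in thymus, Capn6 at 0.98 (standard error 0.21, adjusted p = 0.207 by edgeR) in cerebrum and the ubiquitous Capn1 at -0.26 (standard error 0.11, adjusted p = 0.957 by edgeR) in cerebellum.

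Slc14a1 (ENSMUSG00000059336, chr18:78100091-78142119, minus strand) was at 19.7, 21.3, 17.1 and 18.9 CPM in the Tol thymi and at 10.4, 12.9, 12.001 and 12.7 CPM in the WT thymi, a log2 fold change of 0.68 (standard error 0.09). The 4 Tol mice were above the WT mice, Tol 2 highest. The 8 erythroid markers, read beside it because red cells carry the transporter, summed to 155.9 to 223.4 CPM in the Tol thymi and 102.4 to 238.2 CPM in the WT thymi, overlapping ranges. Of these, 0 of 6 tested passed an adjusted p of 0.05 in edgeR, Hbb-bs was the most abundant (mean 83.9 CPM) and none was at 0 in all thymi. In the cerebra Slc14a1 stood at 8.44, 8.50, 10.4 and 10.4 CPM in Tol mice and at 11.9, 10.7, 9.61 and 12.1 CPM in WT mice. Only WT 3 fell among the Tol mice, the reverse of the thymus order, with a log2 fold change of -0.23 (95% interval -0.50 to 0.03, unadjusted p = 0.0772 and adjusted p = 0.564 by edgeR). In the cerebella the Tol mice had 39.2 and 19.7 CPM and the WT mice 32.4, 27.7, 34.8 and 31.3 CPM. The Tol cerebella enclosed all WT cerebella, the lower being Tol 2, and the log2 fold change of -0.08 (95% interval -0.72 to 0.56, adjusted p = 0.972 by edgeR) became 0.31 without that library (adjusted p = 0.979 by edgeR). The 7 astrocyte markers summed to 4165 CPM in Tol 2 and 4618 CPM in Tol 1, against 3872 to 4556 CPM in the WT cerebella, where Slc1a2 was the most abundant and 0 of 7 passed an adjusted p of 0.05 in edgeR. None was at 0, and their part in the Slc14a1 level was not tested.

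Of 13 genes of urea transport and the urea cycle, 9 were tested in thymus, 6 in cerebrum and again 9 in cerebellum; 0 passed an adjusted p of 0.05 in edgeR in any of them, with 1, 0 and 0 under an unadjusted p of 0.05 (24.4%, 9.66% and 3.16% of all genes). Their median log2 fold changes were 0.03, -0.20 and -0.03. Asl, which cleaves argininosuccinate, was at a log2 fold change of 0.29 (standard error 0.09) in thymus. Ass1, the enzyme before it in the cycle, had the lowest p of the list in both brain regions, with -0.42 in cerebrum (adjusted p = 0.539 by edgeR) and 1.004 in cerebellum (standard error 0.74, adjusted p = 0.957 by edgeR).

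Olfr1033 (ENSMUSG00000045392, chr2:86020633-86045171, plus strand), the member that was lower in Tol thymi, stood at 11.3, 9.71, 10.9 and 10.9 CPM there and at 14.99, 15.9, 16.9 and 14.6 CPM in the WT thymi. Every Tol mouse was below every WT mouse, Tol 2 lowest, with a log2 fold change of -0.54 (standard error 0.08). Only 10 to 27 counts were found in each cerebrum and 25 to 47 in each cerebellum. Cerebrum levels were 1.16, 0.535, 1.18 and 0.934 CPM in Tol and 1.41, 1.03, 0.720 and 1.62 CPM in WT mice, which overlapped (log2 fold change -0.32, 95% interval -1.06 to 0.43, adjusted p = 0.806 by edgeR). Cerebellum levels were 1.07 and 1.01 CPM in Tol and 1.51, 2.05, 1.66 and 1.40 CPM in WT mice. Both Tol cerebella were below all 4 WT cerebella, with a log2 fold change of -0.64 (95% interval -1.33 to 0.04, unadjusted p = 0.0616 and adjusted p = 0.957 by edgeR), and of -0.62 without Tol 2 (adjusted p = 0.979 by edgeR). Both brain estimates were negative, like the thymus value that chose the gene, but they rest on few counts and neither passed the adjusted test. With 1 library left out, the cerebrum estimate ran from -0.50 to -0.11.

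The count tables list 1406 olfactory receptor genes, 1135 of them protein coding, of which 540 of the 1406 had 0 counts in all 22 libraries and 859 had at most 3 counts in every library. The expression filter kept 178 thymus, 174 cerebrum and 245 cerebellum genes. EdgeR called 0 of these in cerebrum and 0 in cerebellum (0% of all genes in both). In thymus it called 1, against 0.0985% of all genes. That 1 was Olfr1033, which had been chosen from the same comparison, so the thymus count is no result about the family. Per kilobase of annotated exon, Olfr1033 was at 3.08 CPM over the 8 thymi and ranked 7 of 1406, at 0.252 CPM in the cerebra (rank 108) and at 0.340 CPM in the cerebella (rank 86). The olfactory receptors with the highest CPM were Olfr784, Olfr986 and Olfr624 in thymus, Olfr1307, Olfr986 and Olfr1385 in cerebrum and Olfr1385, Olfr1307 and Olfr986 in cerebellum. Olfr986 held 7.78, 8.60 and 8.38 CPM per kilobase in thymus, cerebrum and cerebellum, levels that differed little between organs, unlike Olfr1033. Members of this family are similar in sequence, and how the estimation shared reads among them is uncertain.

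**Figure D2:**
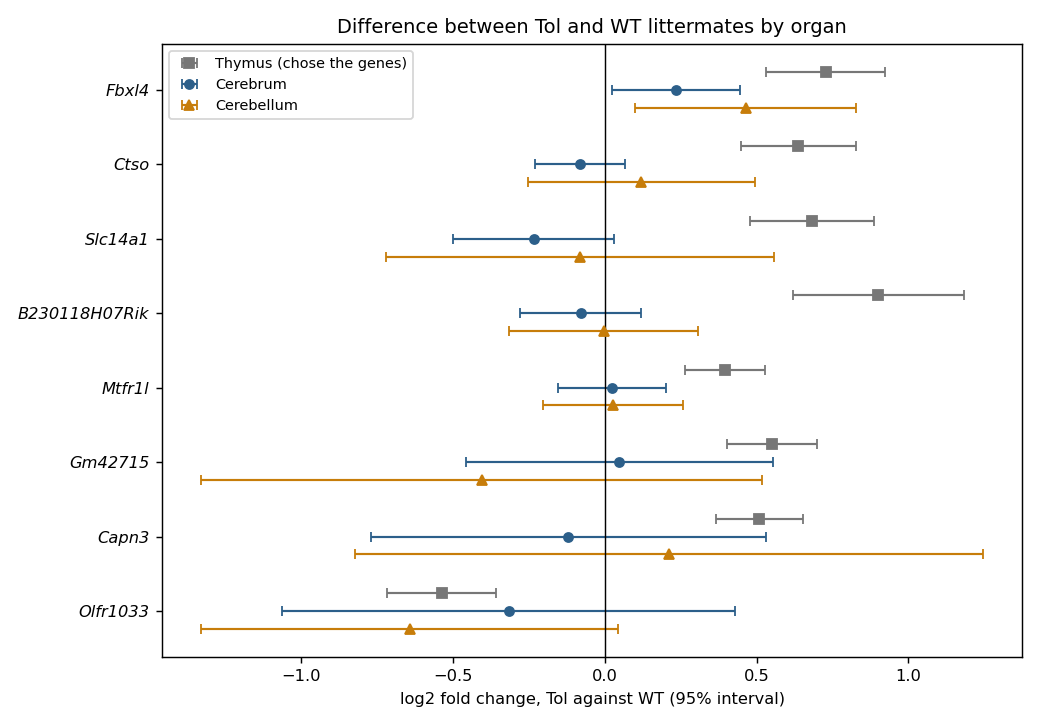
Log2 fold change of Tol against WT (horizontal axis) for each of the 8 genes, with its 95% interval, in thymus (squares), cerebrum (circles) and cerebellum (triangles); n = 4 against 4 in thymus and cerebrum and 2 against 4 in cerebellum. The thymus values chose the genes; of the brain intervals, both for Fbxl4 lie above 0 and all others include 0, and no brain value passed an adjusted p of 0.05.

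B230118H07Rik (ENSMUSG00000027165, chr2:101560781-101649532, minus strand) had the largest thymus difference of the 8. It stood at 21.4, 30.0, 19.6 and 26.7 CPM in the Tol thymi and at 13.5, 13.0, 11.8 and 13.8 CPM in the WT thymi, a log2 fold change of 0.90 (standard error 0.13). Tol 2 and Tol 4 were well above Tol 1 and Tol 3, and all 4 were above the WT mice. In the cerebra it was at 16.5, 17.9, 15.5 and 19.6 CPM in Tol mice and at 18.5, 17.2, 19.0 and 18.6 CPM in WT mice. The Tol mice enclosed the WT mice (log2 fold change -0.08, 95% interval -0.28 to 0.12, adjusted p = 0.822 by edgeR). In the cerebella it was at 28.6 and 22.3 CPM in Tol mice and at 27.3, 26.8, 23.8 and 25.8 CPM in WT mice. The Tol cerebella again enclosed the WT cerebella, with a log2 fold change of -0.00 (95% interval -0.32 to 0.31, adjusted p = 0.998 by edgeR), which became 0.14 without Tol 2 (adjusted p = 0.979 by edgeR).

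The locus of B230118H07Rik holds the most abundant thymocyte marker, Rag1. Rag1, on the same strand, shares 80 bases of exon with it, 1.87% of its exon bases, and Rag2, on the opposite strand, shares 208 bases, 4.85%. The libraries are stranded, but the strand setting of the read estimation is not given in the sources used here. Rag1 was at 3915, 2847, 3812 and 2641 CPM in the Tol thymi and at 4546, 4395, 4052 and 4971 CPM in the WT thymi. It was lowest in Tol 2 and Tol 4, the thymi where B230118H07Rik was highest, and its log2 fold change was -0.44 (standard error 0.13). Rag2 had means of 194.6 ± 14.5 CPM in the Tol and 189.6 ± 13.5 CPM in the WT thymi (SD, n = 4 each), a log2 fold change of 0.04 (standard error 0.07), and Traf6, the next expressed gene beyond them, was at -0.13 (standard error 0.06). Rag1 in the cerebra stood at 1.40 ± 0.519 CPM in Tol and 1.68 ± 0.806 CPM in WT mice (SD, n = 4 each). The part of shared reads in the level of B230118H07Rik was not tested.

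In a list of 9 genes of V(D)J recombination plus the neighbouring Traf6, a signalling ubiquitin ligase, 0 passed an adjusted p of 0.05 in edgeR between Tol and WT mice in thymus (10 tested, 5 under an unadjusted p of 0.05), cerebrum (8 tested, 0) or cerebellum (9 tested, 0), against 24.4%, 9.66% and 3.16% of all genes under that unadjusted p, with medians of 0.02, 0.02 and -0.21. In the brain regions Xrcc6 and Prkdc, both part of the DNA-dependent protein kinase that joins the cut ends, had the lowest p, at -0.17 in cerebrum (adjusted p = 0.595 by edgeR) and -0.23 in cerebellum (adjusted p = 0.957 by edgeR). Of 17 genes of intraflagellar transport, 0 passed in each organ, with 8, 1 and 1 under an unadjusted p of 0.05 in thymus, cerebrum and cerebellum (24.4%, 9.66% and 3.16% of all genes) and medians of 0.14, 0.04 and 0.03. Ift46 was at a log2 fold change of 0.41 (standard error 0.08) in thymus, Ift88 at 0.18 in cerebrum (adjusted p = 0.516 by edgeR) and Ift80 at -0.34 in cerebellum (adjusted p = 0.957 by edgeR).

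Gm42715 (ENSMUSG00000107023, chr7:127519584-127567054, plus strand) was at 36.1, 37.4, 39.97 and 36.0 CPM in the Tol thymi and at 26.4, 25.6, 26.5 and 23.9 CPM in the WT thymi, a log2 fold change of 0.55 (standard error 0.07). The Tol mice lay close together above the WT mice. In the cerebra it was at 12.4, 11.7, 11.6 and 11.9 CPM in Tol mice and at 6.61, 16.3, 11.9 and 11.3 CPM in WT mice. The WT mice enclosed the Tol mice (log2 fold change 0.05, 95% interval -0.46 to 0.55, adjusted p = 0.963 by edgeR). In the cerebella the Tol mice had 22.9 and 14.4 CPM and the WT mice 23.4, 15.03, 23.9 and 38.1 CPM. The groups overlapped, WT 4 being far above the rest, and the log2 fold change was -0.41 (95% interval -1.33 to 0.52, adjusted p = 0.957 by edgeR), or -0.14 without Tol 2 (adjusted p = 0.985 by edgeR).

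76.4% of the exon bases of Gm42715 are also exon of Srcap and 9.91% are exon of Tmem265, on the same strand, so its count rests on how reads common to these genes were shared out. Srcap itself was at 330, 206, 216 and 201 CPM in the Tol thymi and at 265, 247, 232 and 254 CPM in the WT thymi, with Tol 1 highest of all and Tol 2, Tol 3 and Tol 4 lowest. Its log2 fold change was -0.06 (standard error 0.14), and that of Tmem265 was 0.36 (standard error 0.11). With the counts of the 3 genes added, again an alternative chosen after seeing the data, the thymus levels were 373, 252, 263 and 245 CPM in Tol and 297, 278, 265 and 284 CPM in WT mice. The groups then overlapped, and the log2 fold change was 0.02 (95% interval -0.24 to 0.28). Gm42715 took 9.67% to 15.2% of the summed counts in the Tol thymi and 8.43% to 9.99% in the WT thymi. The sums gave log2 fold changes of 0.19 in cerebrum (95% interval 0.05 to 0.33, adjusted p = 0.372 by edgeR) and -0.02 in cerebellum (95% interval -0.42 to 0.38, adjusted p = 0.988 by edgeR).

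**Figure D3:**
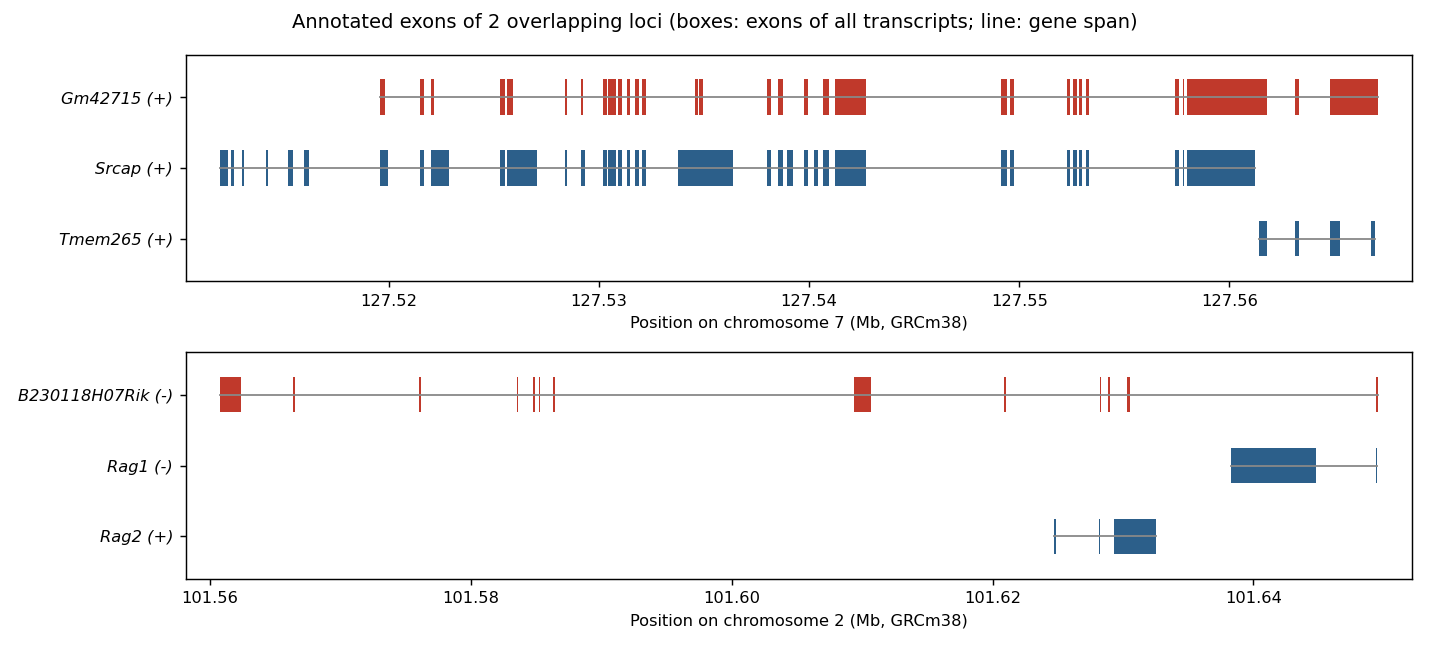
Annotated exons (boxes) and spans (lines) of Gm42715, Srcap and Tmem265 on chromosome 7 and of B230118H07Rik, Rag1 and Rag2 on chromosome 2, drawn to scale (horizontal axis, position in Mb, GRCm38) with the strand in brackets. Gm42715 repeats most Srcap exons from its start onward and runs on into Tmem265, while B230118H07Rik spans both Rag genes with small shared exon pieces.

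Other genes next to the members were read for shifts of a whole neighbourhood. In thymus, Pou3f2 (beside Fbxl4) had means of 0.0748 CPM in Tol and 0.187 CPM in WT mice, and Tdo2 (beside Ctso) was at -0.17 (standard error 0.21) in log2 fold change. Aunip and Selenon, on either side of Mtfr1l, were at 0.30 (standard error 0.13) and -0.19 (standard error 0.13). Fbrs and Phkg2, on either side of Gm42715, were at -0.34 (standard error 0.08) and -0.01 (standard error 0.07), and Tmem87a and Zfp106, on either side of the Capn3 and Ganc pair, at -0.07 (standard error 0.06) and -0.15 (standard error 0.07). Beside Slc14a1, Siglec15 was at 0.14 (standard error 0.26) and Setbp1 at -0.53 (standard error 0.20). Olfr1031 and Gm13722, around Olfr1033, were at -1.24 (standard error 0.51, on a mean of 0.791 CPM in WT mice) and 0.25 (standard error 0.08). Neighbours thus lay on both sides of 0.

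Across the 22 libraries, with the mean of each organ subtracted from log2(CPM + 1), the pattern of Fbxl4 was most like those of Sdr39u1 (Pearson r = 0.88), Dctn6 (0.88) and Tmem165 (0.87) among 14085 genes tested in all 3 organs. This measure includes the genotype difference in thymus that chose the members and is given as a description. Ctso was most like Arl2bp (0.90), B230118H07Rik (0.89) and Bpgm (0.89), and B230118H07Rik most like Sec22a (0.93), Ctso (0.89) and Brms1l (0.89). Slc14a1 was nearest to Tubb2b (0.88), Elp4 (0.86) and Nipsnap2 (0.84). Mtfr1l was nearest to Gm10175, Gm10221 and Cox6a1 (0.86 each). Gm42715 was nearest to Ing2 (0.81), Cinp (0.79) and Bud31 (0.79), Capn3 to Mea1, Arhgap9 and Zdhhc12 (0.79 each), and Olfr1033 to Ubxn4 (0.84), Osmr (0.83) and Ints8 (0.83). Ctso and B230118H07Rik were thus among the 3 nearest genes of each other, the only such pair within the members.

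In thymus, the difference between genotypes went with the annotated exon length of genes, for a reason that was not tested. Across 16199 genes, the log2 fold change of Tol against WT fell with the number of annotated exon bases (Spearman rho -0.34, a description across genes, which are not independent replicates), compared with 0.14 over 15554 genes in cerebrum and -0.05 over 16616 genes in cerebellum. The members' exon bases ran from 3798 (Fbxl4) to 12746 (Gm42715), with a median over the tested thymus genes of 4135, and the part of this trend in the members' differences was not tested.

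Promoter sequences were found for 5 of the 8 members in RefSeq (GRCm38.p6), as windows from 250 bases before to 50 bases after the annotated start. Those of Fbxl4 (chr4:22357293-22357592, plus strand), Ctso (chr3:81932351-81932650, plus strand) and B230118H07Rik, as Iftap (chr2:101628982-101629281, minus strand), are shown because these 3 members ranked the Tol thymi in the same order, Tol 2, Tol 4, Tol 1, Tol 3. RefSeq gives Iftap a second start, whose window (chr2:101620997-101621296) holds none of the motifs below and is not shown. The Iftap window shown lies in an intron of Rag2, between exons that end at 101628199 and start at 101629322. Capitals mark matches on either strand to the GC box GGGCGG, the CCAAT box CCAAT, the ETS motif CCGGAAG and the ZNF143 motif, ACTACA and TTCCC with any base between them. No matches overlap in these windows, and the TATA box TATAAA and the E box CACGTG had none.
Fbxl4: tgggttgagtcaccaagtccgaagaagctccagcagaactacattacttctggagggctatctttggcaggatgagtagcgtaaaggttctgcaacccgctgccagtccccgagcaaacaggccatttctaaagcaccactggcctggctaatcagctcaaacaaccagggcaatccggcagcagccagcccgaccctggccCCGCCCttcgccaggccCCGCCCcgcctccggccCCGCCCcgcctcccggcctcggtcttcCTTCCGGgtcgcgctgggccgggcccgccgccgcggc
Ctso: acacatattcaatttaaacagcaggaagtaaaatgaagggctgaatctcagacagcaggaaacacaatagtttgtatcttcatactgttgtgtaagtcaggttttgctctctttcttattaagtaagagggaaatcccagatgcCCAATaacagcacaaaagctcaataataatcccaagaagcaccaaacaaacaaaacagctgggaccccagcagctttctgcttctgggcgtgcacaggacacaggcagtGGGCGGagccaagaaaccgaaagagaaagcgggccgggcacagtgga
B230118H07Rik: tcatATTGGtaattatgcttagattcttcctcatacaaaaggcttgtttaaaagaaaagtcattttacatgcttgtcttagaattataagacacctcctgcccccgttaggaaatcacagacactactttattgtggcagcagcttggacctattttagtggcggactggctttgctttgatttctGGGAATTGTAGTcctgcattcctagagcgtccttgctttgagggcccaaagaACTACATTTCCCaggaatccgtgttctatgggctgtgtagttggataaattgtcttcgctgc
The Fbxl4 window is 66% G and C and holds 3 GC boxes and 1 ETS motif, the Ctso window is 45.3% G and C with 1 GC box and 1 CCAAT box, and the Iftap window is 42% G and C with 1 CCAAT box and 2 ZNF143 motifs, 1 on each strand. The median over all promoters is 52.7%. Of 32851 promoter windows, 35.7% hold a GC box, 37.4% a CCAAT box, 13.6% a TATA box, 7.15% an E box, 8.86% the ETS motif and 0.947% the ZNF143 motif, which was added to the search after the Iftap sequence had been seen. No motif was common to the 3 windows. A match describes letters in the window and no site, and where there is no match it says only that these letters are not in this window.

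Between organs of WT mice, most members differed, as did most genes. From thymus to cerebrum, 7 of 8 members passed an adjusted p of 0.05 in edgeR against 84.3% of 17413 genes, 4 higher in cerebrum (40.9% of all genes) and 3 lower (43.4%). Of the members, 7 had an unadjusted p under 0.05 against 84.9%, and 82.5% of all genes had groups without overlap (40.2% higher and 42.3% lower). From thymus to cerebellum, 7 of 8 passed against 83.5%, 5 higher (41.7%) and 2 lower (41.8%). Of the members, 7 had an unadjusted p under 0.05 against 84.2%, and 80.5% of all genes had groups without overlap (40.4% higher and 40.1% lower). Between cerebellum and cerebrum, 5 of 8 passed against 51.1%, 4 higher in cerebellum (26.4%) and 1 lower (24.6%). Of the members, 5 had an unadjusted p under 0.05 against 56.7%, and 43.9% of all genes had groups without overlap (22.5% higher and 21.4% lower). These counts are no result about the members as a group, and the 3 comparisons share their WT libraries. The labels do not say whether organs of the same number came from 1 mouse. The main fits took no account of the number.

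Olfr1033 and Capn3 were thymus genes among the 3 organs. Olfr1033 was at 15.6 ± 0.992 CPM (SD, n = 4) in WT thymus, 1.19 ± 0.399 in cerebrum and 1.65 ± 0.284 in cerebellum, log2 fold changes of -3.72 (standard error 0.21, adjusted p = 3.01e-09 by edgeR) and -3.27 (standard error 0.20, adjusted p = 6.84e-09 by edgeR) against thymus. The brain regions did not differ beyond their spread (0.45, adjusted p = 0.105 by edgeR; without cerebrum WT 4 it was 0.63, adjusted p = 0.0354). Capn3 was at 39.3 ± 3.20, 4.83 ± 2.16 and 1.91 ± 0.699 CPM in WT thymus, cerebrum and cerebellum, with log2 fold changes of -3.04 (standard error 0.29, adjusted p = 4.86e-07 by edgeR) and -4.39 (standard error 0.31, adjusted p = 2.66e-08 by edgeR) against thymus. Cerebellum was also below cerebrum, at -1.35 (standard error 0.31, adjusted p = 0.00299 by edgeR), but with Ganc added this difference was 0.16 (adjusted p = 0.225 by edgeR). The added counts gave smaller differences from thymus too, -2.16 for cerebrum (standard error 0.10, adjusted p = 4.99e-10 by edgeR) and -2.004 for cerebellum (standard error 0.10, adjusted p = 9.60e-10 by edgeR).

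Slc14a1 had its highest WT level in cerebellum, 31.6 ± 2.98 CPM (SD, n = 4), against 12.003 ± 1.15 in thymus and 11.1 ± 1.17 in cerebrum. Its log2 fold change was 1.36 (standard error 0.11, adjusted p = 7.98e-08 by edgeR) against thymus and 1.5002 (standard error 0.11, adjusted p = 5.21e-07 by edgeR) against cerebrum, and thymus and cerebrum did not differ beyond their spread (-0.14, adjusted p = 0.248 by edgeR). B230118H07Rik and Mtfr1l shared 1 order, lowest in thymus, then cerebrum, then cerebellum: 13.1 ± 0.868, 18.3 ± 0.774 and 25.9 ± 1.54 CPM for B230118H07Rik and 38.2 ± 0.398, 51.9 ± 4.50 and 67.7 ± 3.55 CPM for Mtfr1l. Each step passed the test, the smallest being 0.38 for Mtfr1l between cerebrum and cerebellum (standard error 0.07, adjusted p = 5.72e-04 by edgeR). The Tol thymi of B230118H07Rik, at 24.4 ± 4.79 CPM, and of Mtfr1l, at 50.1 ± 2.94 CPM, had means within the range of levels of the WT brain, a comparison across organs that was not tested.

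Fbxl4 was at 9.94 ± 0.617 CPM (SD, n = 4) in WT thymus, 14.6 ± 1.22 in cerebrum and 15.9 ± 1.01 in cerebellum. It was higher in both brain regions than in thymus (0.53 and 0.64, adjusted p = 1.22e-04 and 2.08e-05 by edgeR). Between the brain regions its difference did not pass an adjusted p of 0.05 (0.11, adjusted p = 0.312 by edgeR). Ctso was nearly level, at 27.9 ± 2.00, 33.4 ± 1.503 and 33.8 ± 5.05 CPM, with log2 fold changes of 0.23 (adjusted p = 0.0440 by edgeR) and 0.24 (adjusted p = 0.0364 by edgeR) against thymus that no longer passed with DESeq2 (adjusted p = 0.0508 and 0.0888). They also did not pass without any 1 of thymus WT 1, WT 3 or WT 4 (adjusted p = 0.0984, 0.122 and 0.0754 for cerebrum and 0.132, 0.164 and 0.101 for cerebellum). For cerebrum the same held without cerebrum WT 1, WT 2 or WT 4 (adjusted p = 0.0811, 0.0777 and 0.0679 by edgeR), and for cerebellum without cerebellum WT 2 or WT 4 (adjusted p = 0.0988 and 0.0540 by edgeR). Gm42715 was at 25.6 ± 1.18, 11.5 ± 3.98 and 25.1 ± 9.58 CPM, lower in cerebrum than in thymus (-1.17, standard error 0.28, adjusted p = 0.00165 by edgeR) and than in cerebellum, which was higher by 1.12 (standard error 0.28, adjusted p = 0.00513 by edgeR). With Srcap and Tmem265 added these were -0.97 and 0.38 (adjusted p = 2.28e-07 and 0.00277 by edgeR). Between cerebellum and thymus the difference did not pass an adjusted p of 0.05 (-0.06, adjusted p = 0.848 by edgeR), but with the added counts the log2 fold change was -0.60 (standard error 0.09, adjusted p = 2.60e-05 by edgeR).

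Per kilobase of annotated exon, the WT thymus levels ran from Capn3 (7.83 CPM) and Mtfr1l (7.11 CPM) through Ctso (5.45 CPM), Olfr1033 (3.66 CPM), B230118H07Rik (3.04 CPM), Slc14a1 (3.00 CPM) and Fbxl4 (2.62 CPM) to Gm42715 (2.01 CPM). In WT cerebellum Mtfr1l (12.6 CPM) and Slc14a1 (7.90 CPM) led, and Olfr1033 (0.388 CPM) and Capn3 (0.381 CPM) were lowest. The list of V(D)J recombination genes, with Traf6, showed the contrast of the organs: all 10 were lower in WT cerebrum and in WT cerebellum than in WT thymus by edgeR (43.4% and 41.8% of all genes), with median log2 fold changes of -2.52 and -2.68, against -0.06 and 0.01 over all genes. Of 17 genes of intraflagellar transport, 11 were higher and 5 lower in WT cerebrum than in WT thymus (40.9% and 43.4% of all genes; median 0.85). In WT cerebellum 10 were higher and 4 lower than in WT thymus (41.7% and 41.8% of all genes; median 0.75).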

How the data were processed

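Gene counts of 22 libraries were analysed, grouped by the submitters' labels. The authors deposited estimated counts (expected counts) per gene, made upstream by Salmon 0.14.1; they are whole numbers, so that no rounding was needed. Columns named MRT were taken as the Tol libraries of the same number. The Ensembl release used upstream is not given in the sources used here. Symbols and positions are from GENCODE vM21, which held 34465 of 34585 listed entries. 0 columns were left unused.

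Tol was compared with WT in each organ, and the organs of the 12 WT libraries with each other, using edgeR 4.0.16 (R 4.3.3): filterByExpr, TMM normalization, the quasi-likelihood F test, and Benjamini-Hochberg adjustment over all genes tested, the Tol transcript left out. All 8 members passed the filter in every comparison. Intervals are 95% intervals of the fitted log2 fold change. CPM use TMM factors over all 22 libraries. The fits were tested on simulated data. A level under 3 counts (0.0745 to 0.234 CPM) was taken as not detectable, for counting error only, and every member was above it in every library. No libraries of a group were as alike as sampling noise allows (chi-square over its degrees of freedom was 5.28 to 223.5). The mice of a group are separate animals.

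The members and the gene lists were chosen with earlier results of these data known. Named were all 8 members; overlapping and nearest expressed genes; the 3 most similar genes of each member; of each list, up to 3 genes under an adjusted p of 0.05, otherwise the gene with the lowest p; the 3 olfactory receptor genes with the highest CPM in each organ; and cell type markers. The list symbols Fam73a and Fam73b were read as Miga1 and Miga2. Promoters are from RefSeq GRCm38.p6. Alternatives were DESeq2 1.42.0 and its size factors, no filter, at least 10 counts in every library, each library left out, a block for the replicate number, and a joint fit of all 22 libraries. Merging of overlapping genes was added later.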

Additional observations from a re-analysis of the deposited data

Results flagged for a closer look

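Values that stand far from the rest of their group: the total count was 34776973 in thymus Tol 1 (nearest of its group 20527399, a gap of 0.877 of the range), 29145285 in thymus WT 4 (nearest 17940261, gap 0.874) and 14543698 in cerebrum Tol 4 (nearest 22147602, gap 0.867). Mtfr1l in cerebrum Tol 2 was at 58.2 CPM, with the nearest Tol cerebrum at 51.0 CPM (gap 0.930). Of 45 groups examined, 4 held such a value, with 2.25 expected by chance.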

How the results depend on the processing

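The number of thymus genes called, 16 in edgeR, was 1296 with DESeq2, 130 with no filter, 85 with at least 10 counts in every library and 29 with all 22 libraries in one fit, which called 4 members. Leaving out 1 thymus library gave 0 to 2978 calls (2978 without Tol 1) and 0 to 8 members, 0 without Tol 2, Tol 4, WT 1, WT 2 or WT 3. Calls in cerebrum, 0, became 187 with DESeq2 and 25 in the one fit, and 0 to 7 with 1 library left out; in cerebellum they became 9 with DESeq2 and 0 to 2. The cause was not tested.

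Signs that turned: Ctso between WT cerebellum and cerebrum was at -0.0292 with the DESeq2 size factors in edgeR, -0.0296 with DESeq2 and -0.0116 with no filter. Capn3 with Ganc added was at 0.0695 in cerebrum, -0.0899 in cerebellum and 0.156 between WT cerebellum and cerebrum. With 1 library left out, the ranges in cerebellum were -0.18 to 0.14 for B230118H07Rik, -0.14 to 0.49 for Capn3, -0.0438 to 0.0844 for Mtfr1l and -0.64 to 0.31 for Slc14a1. In cerebrum they were -0.27 to 0.21 for Capn3, -0.14 to 0.27 for Gm42715 and -0.0276 to 0.0811 for Mtfr1l. Ctso ran from -0.0873 to 0.0504 between WT cerebellum and cerebrum and Gm42715 from -0.32 to 0.13 between WT cerebellum and thymus.

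Ctso no longer passed for WT cerebrum against thymus with the DESeq2 size factors (adjusted p = 0.0523 by edgeR) or no filter (0.0511), nor for cerebellum against thymus (0.0857 and 0.0607). Fbxl4 ranged from 0.18 to 0.28 in cerebrum and 0.24 to 0.65 in cerebellum with 1 library left out.

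Values of the same number in Tol and WT mice correlated at -0.0726 to 0.0435 in thymus, -0.226 to 0.185 in cerebrum and -0.164 and 0.563 in cerebellum, with no common sign, and the labels name no pairs. Between WT organs of the same number the correlations were all positive but small, 0.00334 to 0.0782. As a block, the number gave 5 thymus calls, 2 of them members, and 0 in cerebrum and cerebellum.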
